A study of Ovis aries with 8 samples.

Results

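The corticosteroid receptors and the 11-beta-hydroxysteroid dehydrogenases are 4 genes: NR3C1, the glucocorticoid receptor; NR3C2, the mineralocorticoid receptor; HSD11B1; and HSD11B2. They were taken as every non-control probe of the sheep array whose gene name, accession or description named the receptor or the enzyme itself, which gave 7 of 15008 probes and 4 of the 843 genes named on it. NR3C1 had 1 probe and the other genes had 2 each. The arrays measured total RNA of the lung of 8 sheep fetuses at about 130 days of gestation, where term is 147 days. In the aldosterone group, 4 fetuses each received 0.2 mg of aldosterone over 48 hours, and in the control group their 4 twins received vehicle. In both groups the infusions began 5 days after surgery, so every lung came from an operated fetus. The lungs were whole tissue, in which fewer cells of a type and less RNA per cell cannot be told apart.

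Both receptors are transcription factors that reside largely in the cytoplasm until a steroid binds them. Aldosterone is the classical ligand of the mineralocorticoid receptor, and cortisol binds both receptors. The 2 enzymes sit upstream of the receptors: HSD11B1 mainly regenerates active cortisol from cortisone, while HSD11B2 converts cortisol to cortisone and thereby leaves the mineralocorticoid receptor open to aldosterone. In the late-gestation lung, corticosteroids are known for promoting maturation and the absorption of lung liquid.

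The probe sequences, as the scanner files give them, are shown here because they set which values are independent readings of a gene. The NR3C1 probe is given whole, and the first 30 of 60 bases are given for both probes of NR3C2 and HSD11B1.
NR3C1: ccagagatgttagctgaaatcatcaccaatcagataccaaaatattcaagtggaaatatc
NR3C2 probe 1: ttaactatgccatgtcgtttctgggatcgt
NR3C2 probe 2: cttagaaacatgttcctgttcctctggata
HSD11B1 probe 1: atgtcgcattggctttaacttcagttcatt
HSD11B1 probe 2: ctgcgaaattgacagtatccatagatataa
The NR3C2 probes started 86 bases apart on their transcript and the HSD11B1 probes 122 bases apart, so neither pair shared sequence.

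The HSD11B2 probes differ from those pairs. The first 30 bases of each are shown with the bases shared by both stretches in capitals.
HSD11B2 probe 1: GCCACAGGGAGGCTACATACTCACCTGATt
HSD11B2 probe 2: aGCCACAGGGAGGCTACATACTCACCTGAT
They started 1 base apart and shared 59 of 60 bases, so they are nearly the same measurement made at different spots. The last 30 bases of each hold AATAAA, the letters of the usual polyadenylation signal, in capitals.
HSD11B2 probe 1, last bases: gacactttttgAATAAAgataaatttttat
HSD11B2 probe 2, last bases: tgacactttttgAATAAAgataaattttta
The letters AATAAA, searched on the probe strand alone, were present in 845 of the 15008 probes (5.63%). No other probe on the array shared 20 bases with any of the 7.

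All 56 values of the 7 probes, from 7 probes on 8 arrays, were well above background, none was saturated and none carried an outlier flag. NR3C1 gave the lowest processed signal, between 81.1 and 219.8 intensity units. Its error, as estimated by the error model of the feature extraction software, was 10.05% to 11.1% of the signal. Signals of different probes were not set against each other, since probes differ in brightness at equal RNA. Levels below are log2 signals relative to the 75th percentile of the same array, and each gene is compared between lungs only.

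No probe of the 4 genes passed the test between aldosterone and control lungs. In limma, 0 of 12168 probes on the whole array passed an adjusted p of 0.05 (0.0%), and all 7 probes had an adjusted p of 1.0. At an unadjusted p of 0.05, limma gave 228 probes (1.87%) and none of the 7. All 7 probes had a lower mean in aldosterone lungs than in control lungs, as 48.5% of all probes did, and probes of the same gene are not independent. The lungs of the 2 groups overlapped for all 7 probes, while 1.31% of all probes had groups that did not overlap. The 95% intervals of the ratios below come from limma on the group alone, and give the size of change that this model leaves possible. Adding the replicate number as a block, taken to mark the twin set, narrowed the interval of each probe. With the block the ratio's interval was 0.727 to 1.33 for HSD11B1 probe 1 and 0.692 to 1.11 for NR3C2 probe 1. It was 0.540 to 1.19 for NR3C1 and 0.557 to 1.47 for HSD11B2 probe 2.

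**Figure D1:**
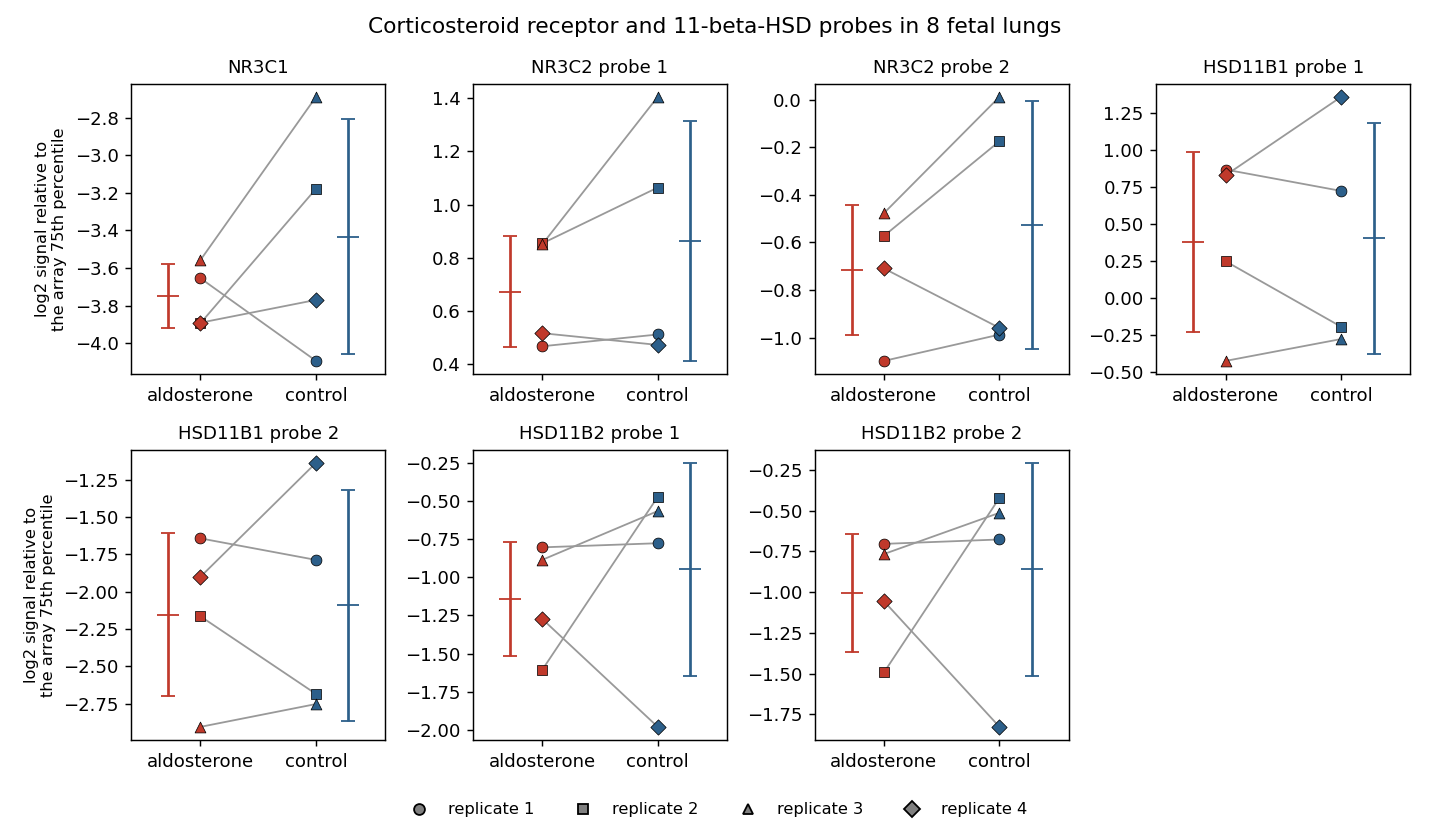
Log2 level of each of the 7 probes, relative to the array's 75th percentile, in the 4 aldosterone lungs (red, left) and the 4 control lungs (blue, right); lines join lungs of the same replicate number, bars at the side give the mean and SD of each group, and each panel has its own scale. The groups overlap in every panel, and the control lungs of NR3C1 range from -4.09 to -2.69 against -3.89 to -3.56 for the aldosterone lungs.

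NR3C1, the receptor through which cortisol acts in most tissues, had levels of -3.65, -3.89, -3.56 and -3.89 in aldosterone lungs 1 to 4, against -4.09, -3.18, -2.69 and -3.77 in control lungs 1 to 4. The aldosterone lungs lay close together, while the control lungs held both the lowest and the highest value of the 8. Control lung 3 was 2.65-fold above control lung 1, whereas the aldosterone lungs spanned 1.26-fold. The mean was -3.75 ± 0.17 in aldosterone lungs and -3.43 ± 0.62 in control lungs (SD, n = 4 each). The log2 difference was -0.32 with a standard error of 0.29, a ratio of 0.803 with a 95% interval of 0.512 to 1.26. This size rested on single control lungs: it was -0.07 without control lung 3 and -0.54 without control lung 1.

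NR3C2 encodes the receptor that binds the infused hormone. Its first probe gave 0.47, 0.85, 0.85 and 0.52 in aldosterone lungs 1 to 4, against 0.51, 1.06, 1.41 and 0.47 in control lungs 1 to 4. Lungs 2 and 3 were the higher ones in both groups, and lungs 1 and 4 the lower ones. The second probe gave -1.10, -0.57, -0.48 and -0.71 in aldosterone lungs, against -0.99, -0.17, 0.01 and -0.96 in control lungs, with control lungs 2 and 3 again highest. For the first probe the mean was 0.67 ± 0.21 in aldosterone lungs and 0.86 ± 0.45 in control lungs (SD, n = 4 each). The log2 difference was -0.19 with both probes, with standard errors of 0.23 and 0.26. The first probe's ratio was 0.876 with a 95% interval of 0.609 to 1.26, the narrowest of the 4 genes. Without control lung 3 the difference was -0.01 with both probes.

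The gap between the NR3C2 probes stayed between 1.23 and 1.57 on the log2 scale over the 8 arrays (SD 0.12). Lung-to-lung changes in this gene were therefore larger than the disagreement between its probes, since the first probe spanned 1.92-fold over the 8 lungs.

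HSD11B1, the enzyme that raises active cortisol within cells, was measured by a first probe at 0.87, 0.25, -0.43 and 0.83 in aldosterone lungs 1 to 4, against 0.72, -0.20, -0.28 and 1.36 in control lungs 1 to 4. Lungs 1 and 4 were the higher ones in both groups, the reverse of NR3C2. The second probe gave -1.64, -2.17, -2.91 and -1.90 in aldosterone lungs, against -1.79, -2.69, -2.75 and -1.14 in control lungs, with the same lungs high. The gap between the probes held between 2.41 and 2.73 (SD 0.093), although they read stretches 122 bases apart.

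The group means of HSD11B1 nearly coincided, at 0.38 ± 0.61 in aldosterone lungs and 0.40 ± 0.78 in control lungs for the first probe (SD, n = 4 each). The log2 difference was -0.02 with a standard error of 0.42, a ratio of 0.984 with a 95% interval of 0.508 to 1.91. For the second probe the difference was -0.06 with a standard error of 0.40. Its sign was not fixed: without control lung 4 the first probe's difference was 0.30, and without control lung 3 it was -0.25. Control lung 4 stood 3.46-fold above aldosterone lung 3, the widest span over lungs among the 7 probes.

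HSD11B2, the inactivating enzyme, is read here by its second probe, which had the higher mean over all arrays. It gave -0.70, -1.49, -0.77 and -1.06 in aldosterone lungs 1 to 4, against -0.68, -0.42, -0.51 and -1.83 in control lungs 1 to 4. Control lung 4 was the lowest of the 8 and control lung 2 the highest, a span of 2.65-fold within the control group. The first probe gave -0.80, -1.61, -0.89 and -1.27 in aldosterone lungs, against -0.78, -0.47, -0.57 and -1.98 in control lungs, and differed from the second by -0.22 to -0.05 on any array (SD 0.054).

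The mean of HSD11B2 was -1.0 ± 0.36 in aldosterone lungs and -0.86 ± 0.65 in control lungs for the second probe (SD, n = 4 each). The log2 difference was -0.15 with a standard error of 0.32, a ratio of 0.904 with a 95% interval of 0.543 to 1.51. For the first probe it was -0.19 with a standard error of 0.34. Without control lung 4 the second probe's difference was -0.47, and without aldosterone lung 2 it was 0.02.

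**Figure D2:**
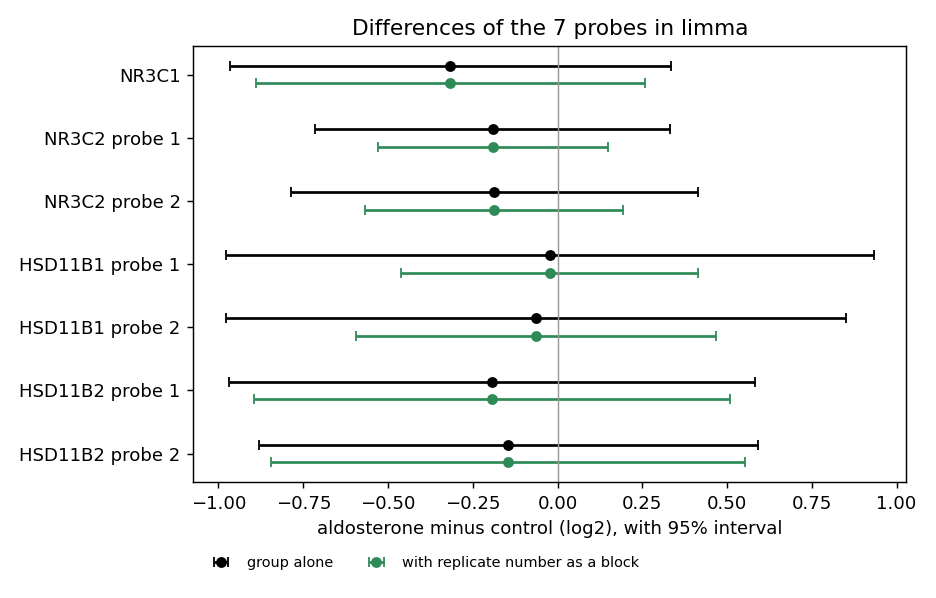
Aldosterone minus control log2 difference of each probe in limma with its 95% interval, from the model of group alone (black) and from the model that adds the replicate number as a block (green). All 14 intervals include 0, and the block narrows HSD11B1 probe 1 the most, to -0.46 to 0.42.

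Same-numbered lungs were also compared one by one, since the labels describe 4 sets of twins. The NR3C1 differences, aldosterone minus control, were 0.44, -0.72, -0.87 and -0.12 in numbers 1 to 4. The first NR3C2 probe differed by -0.04, -0.21, -0.55 and 0.04, so its aldosterone lung was lower in 3 of 4 numbers, as it was for NR3C1. For both receptors the lowest value came from number 3.

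The enzymes split differently by number. The first HSD11B1 probe differed by 0.14, 0.44, -0.15 and -0.53, lower in 2 of 4 numbers. The second HSD11B2 probe differed by -0.03, -1.07, -0.25 and 0.77, lower in 3 of 4. The enzymes differed in opposite directions in numbers 1, 2 and 4, by little in number 1: HSD11B1 was higher and HSD11B2 lower in aldosterone lungs 1 and 2 than in control lungs 1 and 2, and the reverse held in number 4. With the number as a block, limma's adjusted threshold was passed by 0 of 12168 probes (0.0%). An unadjusted p of 0.05 was passed by 539 (4.43%), with none of the 7 among them. The standard error fell to 0.18 for HSD11B1 probe 1 and to 0.14 for NR3C2 probe 1, while for HSD11B2 probe 2 it was 0.29, close to its value without the block.

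The arrays of numbers 1 and 2 lay in the first row of the slide and those of numbers 3 and 4 in the second. Same-numbered arrays lay side by side. Within the first row the log2 difference of HSD11B1 probe 1 was 0.29 and within the second -0.34. For HSD11B2 probe 2 it was -0.55 within the first row and 0.26 within the second. The receptors were lower in aldosterone lungs within both rows, at -0.14 and -0.49 for NR3C1 and at -0.13 and -0.26 for NR3C2 probe 1.

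The mean level of red blood cell transcripts moved across the same numbers. The mean level of HBB, AHSP and CA1, which encode beta globin, an alpha globin chaperone and a carbonic anhydrase of red cells, was -0.52, 2.01, 0.98 and -0.80 in aldosterone lungs 1 to 4, against 0.18, 1.95, 2.00 and 0.05 in control lungs 1 to 4. These 3 genes, the whole marker list, were above background on all 8 arrays, and 3 of 3 had a lower mean in aldosterone lungs, with a median log2 difference of -0.72. HBB alone was higher in numbers 2 and 3 in both groups. AHSP was lower in aldosterone lung 3 (-3.96) than in aldosterone lung 1 (-3.71). CA1 was higher in control lung 4 (0.38) than in control lung 2 (-0.54). Their mean level was higher in numbers 2 and 3, as NR3C2 was, and HSD11B1 was lower there. Some other markers, but not all, were higher in numbers 1 and 4 of both groups, as HSD11B1 was. The alveolar type I markers AQP5 and CAV1 had a mean of 0.934, 0.381, 0.905 and 1.207 in aldosterone lungs 1 to 4. In control lungs 1 to 4 it was 0.954, 0.616, 0.874 and 1.279. The mesenchyme markers and TNNC2, a muscle marker, were also higher in numbers 1 and 4 than in 2 and 3 of both groups. Some of these gaps were small. The mesenchyme mean was 2.206 in aldosterone lung 1 against 2.166 in aldosterone lung 2. In control lung 1 TNNC2 was -5.112, against -5.131 in control lung 2. The mean levels of the alveolar type II, airway secretory, endothelial, macrophage and adrenal markers did not have this pattern in both groups. The part of any of these cell types in the differences between lungs was not tested.

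The balance of the receptors and of the enzymes was taken as the difference between 2 log2 signals on the same array, which does not depend on the array's scaling. Its size has no meaning across genes, and only its change between lungs is read. NR3C1 less NR3C2 was -4.12, -4.75, -4.41 and -4.41 in aldosterone lungs 1 to 4, against -4.61, -4.24, -4.09 and -4.24 in control lungs 1 to 4. The aldosterone lungs held the lowest value and the control lungs the highest, with overlap between. The mean was -4.42 ± 0.26 in aldosterone lungs and -4.30 ± 0.22 in control lungs (SD, n = 4 each), a difference of -0.13 (exact two-sided permutation test, p = 0.486; adjusted over the 2 ratios, 0.743). The smallest p that 4 against 4 allows is 0.0286.

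HSD11B1 less HSD11B2 was 1.57, 1.74, 0.34 and 1.89 in aldosterone lungs 1 to 4, against 1.40, 0.23, 0.24 and 3.19 in control lungs 1 to 4. Control lung 4 was far above the other lungs and control lungs 2 and 3 lay at the bottom, which made the range of this ratio 7.79-fold over the 8 lungs, all of it within the control group. The mean was 1.39 ± 0.71 in aldosterone lungs and 1.26 ± 1.40 in control lungs (SD, n = 4 each), a difference of 0.12 (exact two-sided permutation test, p = 0.743; adjusted, 0.743). By number the ratio differed by 0.17, 1.51, 0.10 and -1.30. The receptor ratio spanned 1.57-fold over the same lungs. Within the first row of the slide the difference of the enzyme ratio was 0.84 and within the second -0.60.

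**Figure D3:**
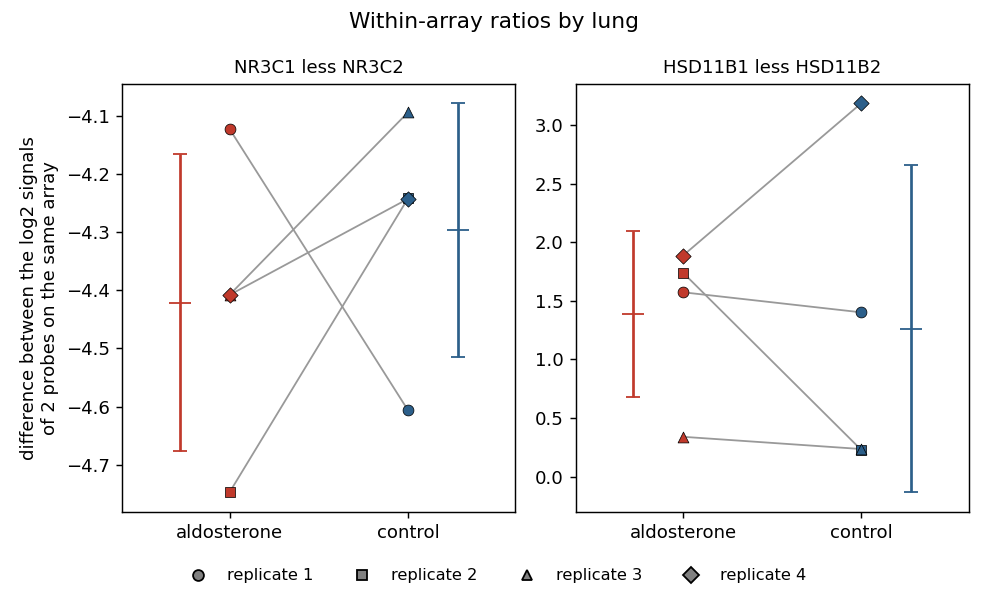
Difference between the log2 signals of 2 probes on the same array, for NR3C1 less NR3C2 (left) and HSD11B1 less HSD11B2 (right), in the aldosterone lungs (red) and the control lungs (blue); lines join lungs of the same number, side bars give the mean and SD, and the panels have separate scales. The enzyme ratio reaches 3.19 in control lung 4, against 0.23 and 0.24 in control lungs 2 and 3.

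The enzymes varied more between lungs of a group than most probes did. The within-group SD was 0.70 and 0.67 for the HSD11B1 probes and 0.56 and 0.53 for the HSD11B2 probes, on the log2 scale, against a median of 0.29 over the 12168 probes. Of all probes, 92.6% varied less than HSD11B1 probe 1 and 84.6% less than HSD11B2 probe 2. NR3C1, at 0.46, exceeded 78.4% of probes, and NR3C2 probe 1, at 0.35, exceeded 63.0%.

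Setting each lung against its same-numbered partner reordered the genes. The SD of the 4 differences was 0.76 for both HSD11B2 probes, which 92.0% and 91.9% of probes fell below, and 0.60 for NR3C1. It was 0.42 for HSD11B1 probe 1, which 73.0% of probes fell below, and 0.26 for NR3C2 probe 1, under the median of 0.28 over all probes. The mean of the same-numbered lungs ranged over 1.45 on the log2 scale for HSD11B1 probe 1, over 0.80 for HSD11B2 probe 2, over 0.75 for NR3C1 and over 0.64 for NR3C2 probe 1. HSD11B1 thus had the widest range from number to number, and HSD11B2 the widest differences between lungs of the same number.

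**Figure D4:**
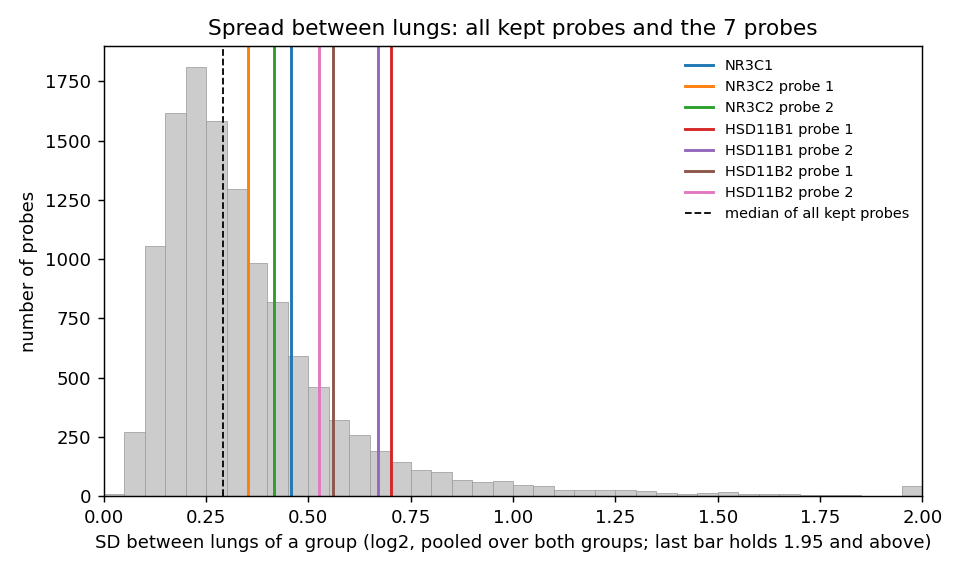
Number of probes by their SD between lungs of a group (log2, pooled over the aldosterone and control groups), with the 7 probes as coloured lines and the median of all 12168 probes, 0.29, as a dashed line. The 7 probes all lie above the median, from 0.35 for NR3C2 probe 1 to 0.70 for HSD11B1 probe 1.

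For each member, the 3 named genes whose level followed it most closely over the 8 arrays were found among 691 genes, after the group means were removed. The lungs of the same number were taken to be twins and the arrays share a slide, so Pearson's r is a description. NR3C1 was followed by KIAA2013 (r = 0.978), by AHR (r = 0.953), the aryl hydrocarbon receptor, and by PPP1R12A (r = 0.917), the targeting subunit of myosin phosphatase. NR3C2 was followed by RACK1 (r = 0.951), a scaffold protein of the ribosome, by CDKN1B (r = 0.943), an inhibitor of cyclin-dependent kinases, and by SLIRP (r = 0.924), a mitochondrial RNA-binding protein.

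HSD11B1 was followed by PYGL (r = 0.922), the liver form of glycogen phosphorylase, by CCN1 (r = 0.864), a matrix-associated signalling protein, and by RCAN1 (r = 0.862), a calcineurin regulator. HSD11B2 was followed by PYGM (r = 0.939), the muscle form of glycogen phosphorylase, by CDK4 (r = 0.911), a cell cycle kinase, and by SMAD7 (r = 0.902), an inhibitor of TGF-beta signalling. Among the 691 genes, 3 had an r above 0.9 with NR3C1, 7 with NR3C2, 1 with HSD11B1 and 4 with HSD11B2.

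The rest of the corticosteroid pathway was read from 5 lists of 98 genes, of which 22 were measured. Of these, 13 had a higher and 9 a lower mean in aldosterone lungs, with a median log2 difference of 0.09 against 0.01 over all probes. None passed limma's adjusted threshold. Chaperones and cochaperones hold the receptors ready to bind steroid, and 2 of 17 of them were measured. HSP90AA1, a heat shock protein of the receptor complex, differed by 0.11 ± 0.17 (log2 difference ± standard error here and below). DNAJA1, a cochaperone, differed by -0.03 ± 0.15. The DNAJA1 difference turned to 0.08 without control lung 4 and to 0.0099 without aldosterone lung 1.

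Of the coregulators, 4 of 22 were measured, 3 with a higher and 1 with a lower mean, and the list's median was 0.07. YWHAH, a 14-3-3 protein, differed by 0.03 ± 0.13 and STAT5A, a transcription factor that binds the glucocorticoid receptor, by 0.12 ± 0.24. A second STAT5A probe differed by 0.02. FOS, a subunit of AP-1, differed by -0.58 ± 1.04, the least precise value among the genes named, and its other probes by -0.18, -0.18 and -0.37. Without aldosterone lung 3 the FOS difference was 0.14, and that of STAT5A was -0.08. YWHAH was at -0.0052 without aldosterone lung 1 and at -0.03 without control lung 2.

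Of the known receptor targets, 8 of 28 were measured, 6 with a higher and 2 with a lower mean, and the median was 0.10. CDKN1C, an inhibitor of the cell cycle, differed by 0.14 ± 0.29 and CEBPB, a transcription factor, by 0.09 ± 0.30. The sodium channel subunits SCNN1A and SCNN1B, through which lung liquid is absorbed, differed by 0.11 ± 0.21 and 0.09 ± 0.21. A second SCNN1A probe differed by -0.01. NFKBIA, the inhibitor of NF-kappa-B, differed by -0.58 ± 0.82, and by 0.36 without control lung 4, so its lower mean rested on that lung. The signs of the other targets also turned without single lungs: CDKN1C to -0.06 without aldosterone lung 4, SCNN1A to -0.05 without control lung 3 and SCNN1B to -0.06 without aldosterone lung 3. CEBPB turned to -0.06 without aldosterone lung 2, to -0.02 without control lung 2 and to -0.06 without control lung 3.

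Of steroid metabolism and transport, 6 of 27 genes were measured, 3 with a higher and 3 with a lower mean, and the median was 0.06. CYP3A24, the name under which a sheep CYP3A steroid hydroxylase is listed, differed by 0.55 ± 0.20. It was the 1 gene of the 22 measured list genes under an unadjusted p of 0.05 in limma on the group alone, with an adjusted p of 1.0. Of all probes, 1.87% were under that threshold. ABCB1, an efflux transporter that carries corticosteroids, differed by 0.48 ± 0.23. With the replicate block the standard errors were 0.14 for ABCB1 and 0.18 for CYP3A24. Both genes were then under limma's unadjusted threshold, as 4.43% of all probes were, and neither passed the adjusted one. AKR1C3, a ketosteroid reductase, differed by -0.29 ± 0.31, CYP17A1, the steroid 17-alpha-hydroxylase, by -0.08 ± 0.18, and the probe of CYP21A2, the steroid 21-hydroxylase, by 0.20 ± 0.23. The CYP17A1 difference was 0.03 without control lung 2.

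Of the 4 other steroid receptors, ESR1, an oestrogen receptor, differed by -0.14 ± 0.18 and PGR, the progesterone receptor, by -0.17 ± 0.28, with a second PGR probe at 0.43. The first PGR probe was at 0.05 without control lung 4. ESR2, the other oestrogen receptor, did not pass the filter on dim probes. Neither did PPARGC1A, a coactivator, PCK1, a gluconeogenic target, or the steroidogenic genes CYP11A1, CYP11B1, CYP19A1 and STAR.

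The tissue label was checked against surfactant genes. SFTPA1, SFTPB and SFTPC were above background on all 8 arrays, with a mean level of 6.52 to 7.25 in aldosterone lungs and 6.83 to 7.36 in control lungs. Between 76.5% and 85.4% of spots were well above background on an array, and arrays correlated at 0.966 to 0.989 across probes. Of adrenal markers, CYP17A1 and CYP21A2 were detected, with a mean level of -0.90 to -0.57 in aldosterone lungs and -1.12 to -0.57 in control lungs, and CYP11A1 did not pass the filter on dim probes. Precision is limited throughout by there being 8 arrays.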

How the data were processed

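RNA of 8 fetal sheep lungs, 4 aldosterone and 4 control, was hybridised singly to 1-colour arrays on 1 slide. Per the file headers, the deposited spot intensity was made by the authors with Agilent Feature Extraction 10.1.1.1, with background subtraction and spatial detrending but no scaling between arrays. The authors' deposited series table of log2 values (12762 features, medians of 0, 12 to 262 empty cells per column) equals the log2 processed signal less a constant per array and served as an alternative; the sources used here do not give how its features were chosen. Here each array's 75th percentile was subtracted from its log2 processed signal, and spots of a probe were averaged without outlier-flagged spots (74 values). The filter kept 12168 of 15008 probes, those well above background on 4 or more of the 8 arrays. Names came from accession (713 probes), gene ID (140), symbol (502), synonym (26) or description (11), through RefSeq's gene table (assembly ARS-UI_Ramb_v3.0), which served for naming only; 13616 probes matched nothing. The NR3C2 probes were matched by description and the other 5 by accession. For genes with several probes the brightest was used, and for HSD11B2, listed in the files as HSD11K, this was probe 2.

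Groups were compared with limma 3.58.1 in R 4.3.3 on the group alone, with two-sided p-values adjusted by Benjamini-Hochberg over every kept probe, after a test on simulated data. Ratios were compared with an exact permutation test over 70 assignments. Replicate numbers are those of the labels, whose design describes twins, and the number was taken to mark the twin set, though no label says so. With group means removed, same-numbered lungs correlated at 0.275 to 0.538 and others at -0.449 to 0.204 across 12146 probes. Same-numbered arrays also lay side by side on the slide, so this correlation cannot tell a shared twin set from slide position. Members and lists were chosen with earlier results of these data known. The genes named were all member probes, the first 5 measured genes of each list, the 3 genes most like each member, and list genes that did not pass the filter; some list genes are not reported here. Alternatives were another background correction with quantile normalization, median centring, the authors' values, no filter or a stricter one, the replicate block, the slide row as a block, array weights, keeping flagged spots, averaging probes and leaving out each lung; values within slide rows and without both lungs of number 4 were added after seeing the data.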

Additional observations from a re-analysis of the deposited data

Results flagged for a closer look

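Of 78 groups of 4 lungs, over the 7 probes, the 2 ratios and the genes named with them, 3 held a lung whose gap to the nearest other exceeded Dixon's 95% critical share of the group's range, where chance alone gives about 3.9. NFKBIA stood at 5.04 in control lung 4, against 1.22 to 1.31 in the other control lungs, 13.3-fold above the next. DNAJA1 stood at 4.04 in the same lung, against 3.57 to 3.62. SMAD7 stood at -2.99 in aldosterone lung 1, against -3.79 to -3.73 in the other aldosterone lungs. Control lung 4 was also the lung with the highest HSD11B1 and the lowest HSD11B2 level, though neither enzyme was past the critical value there.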

How the results depend on the processing

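Of the alternatives, none brought any of the 7 probes past an adjusted p of 0.05 in limma, and the receptors' differences and the receptor ratio stayed negative under all of them. At an unadjusted p of 0.05, limma gave 143 probes without control lung 3 and 1282 with array weights, the lowest and highest counts. The lowest unadjusted limma p of any of the 7 was 0.0402, for HSD11B2 probe 1 without control lung 4 (adjusted p = 0.861). The sign of HSD11B1 and of the enzyme ratio depended on single lungs. For HSD11B1 probe 1 the difference was 0.031 with array weights, 0.02 without aldosterone lung 2, 0.25 without aldosterone lung 3, 0.08 without control lung 1, 0.30 without control lung 4, 0.29 within slide row 1 and 0.15 without both lungs of number 4. For probe 2 it was 0.0021 with array weights, 0.19 without aldosterone lung 3, 0.04 without control lung 1, 0.26 without control lung 4, 0.33 within row 1 and 0.17 without both lungs of number 4. HSD11B2 turned positive within row 2, at 0.19 and 0.26 for probes 1 and 2, and for probe 2 at 0.018 without aldosterone lung 2 and 0.00091 without control lung 2. The enzyme ratio was -0.04 without aldosterone lung 4, -0.22 without control lung 2, -0.22 without control lung 3 and -0.60 within row 2. Leaving out single lungs, the range was -0.54 to -0.07 for NR3C1, -0.32 to -0.01 and -0.34 to -0.0072 for the NR3C2 probes, -0.25 to 0.30 and -0.28 to 0.26 for the HSD11B1 probes, -0.54 to -0.03 and -0.47 to 0.02 for the HSD11B2 probes, -0.23 to -0.02 for the receptor ratio and -0.22 to 0.76 for the enzyme ratio. The median of the other steroid receptors was -0.33 within row 1, 0.028 within row 2 and 0.014 with all probes averaged. The other list medians moved with single lungs: receptor targets from 0.02 without aldosterone lung 3 to 0.26 without control lung 4, coregulators from 0.01 without control lung 2 to 0.14 without aldosterone lung 2, steroid metabolism from -0.03 without control lung 1 to 0.18 without aldosterone lung 1, and chaperones from -0.01 without control lung 3 to 0.08 without control lung 1. The targets' median was 0.28 with array weights and -0.04 within row 1, that of steroid metabolism -0.04 with array weights and 0.22 within row 1, and the chaperones' -0.02 in the authors' values. By Spearman's rho, 1 of the 3 genes most like HSD11B1 was shared. With the replicate block, the paired value of NR3C1 was again -0.32 (adjusted p = 0.878 in limma), and the exact paired test gave p = 0.625 for both ratios, where 0.125 is the smallest it allows. The block brought no probe past the adjusted threshold. The cause of these changes was not tested.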
